A study of Mus musculus with 20 samples.

Results

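In mouse ES cells induced to express the mutant Sox2KE, 11000 sites held both Sox2KE and Oct4 (Pou5f1) in every library of the line. They were found from 4 peak lists of this line, 2 of Sox2KE and 2 of Oct4, out of 18 peak lists of the series. A site needed a peak in both replicates of a protein, which gave 22864 Sox2KE sites and 25405 Oct4 sites, and it was joint where a Sox2KE site and an Oct4 site lay within 200 bp. A further 4257 Sox2KE sites had no Oct4 peak of either library (Sox2KE-alone), and 1398 Oct4 sites had no Sox2KE peak of either library (Oct4-alone). All other sites were in between.

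The series mapped binding of Sox proteins and Oct4 by chromatin immunoprecipitation and sequencing in ES cells and in F9 embryonal carcinoma cells. All 4 libraries described here came from the KH2 ES line, undifferentiated and grown with serum and leukemia inhibitory factor, given doxycycline at 1 µg/ml and overexpressing Sox2KE with a V5 tag. Other KH2 lines expressed V5-tagged Sox2, Sox17EK or Sox17 under the same treatment, and F9 cells were untreated or given 1 µM retinoic acid (F9+RA). The Sox2KE libraries were made with the V5 antibody. For the Oct4 libraries made from ES cells, an Oct4 and a V5 antibody are both listed, so peaks of tagged Sox2KE in the Oct4 libraries cannot be told apart from peaks of Oct4. The transgene was added to cells that have their own Sox2, which the V5 antibody does not see. Whether A and B were grown as separate cultures is not stated.

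Sox2 bends DNA through its HMG box, and Oct4 binds next to it through its POU domains. On the composite Sox-Oct element of pluripotency enhancers the proteins touch and bind cooperatively. Sox17, a regulator of primitive endoderm, has a glutamate where Sox2 has a lysine at the surface that faces Oct4, and it pairs with Oct4 on a compressed form of the element. In Sox2KE this lysine of Sox2 is exchanged for glutamate, and in Sox17EK the glutamate of Sox17 for lysine.

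The 4 lists held 33123 and 71693 peaks for Sox2KE (A and B) and 54703 and 32848 peaks for Oct4 (A and B). Each peak has a score given by the authors, at least 50 in every list, which was used here to rank peaks within a list. Read depth is unknown. Of the shorter Sox2KE list 69.0% of peaks entered a site and of the longer 31.9%, against 77.3% of the shorter and 46.4% of the longer Oct4 list. Scores of the replicates at the sites had a Spearman rho of 0.67 for Sox2KE (22864 sites) and 0.75 for Oct4 (25405 sites), as a description across sites.

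Joint sites made up 48.1% of the Sox2KE sites (exact 95% interval 47.5 to 48.8, counting error only) and 43.3% of the Oct4 sites (42.7 to 43.9). After a move of the sites by 10 kb to either side, 1.13% of Sox2KE sites and 1.02% of Oct4 sites had a partner. Sox2KE-alone sites were 18.6% of Sox2KE sites, whereas Oct4-alone sites were only 5.50% of Oct4 sites. Seen from Oct4, 94.5% of its sites overlapped a Sox2KE peak of at least 1 library and 61.4% overlapped one of both. Seen from Sox2KE, the shares were 81.4% and 56.7%.

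Most sites in between had the other protein in 1 library, usually the longer list. Of 13007 Oct4 sites in between, 62.4% overlapped a peak of the long Sox2KE list B and none of list A, and 2.24% the reverse. Of 7607 Sox2KE sites in between, 68.6% overlapped a peak of the long Oct4 list A alone and 5.69% one of Oct4 list B alone. A smaller part, 35.4% of these Oct4 sites and 25.7% of these Sox2KE sites, overlapped peaks of both libraries of the other protein without a matching site. Single lists moved the joint share strongly. Without Sox2KE replicate A it was 26.5% of Sox2KE sites and 74.9% of Oct4 sites, and without Oct4 replicate B it was 72.2% of Sox2KE sites. The classes of sites of 1 protein alone moved as well, little in some settings and strongly in others. Against 4257 Sox2KE-alone and 1398 Oct4-alone sites, there were 9478 and 3171 without Oct4 replicate A. Without Oct4 replicate B there were 4690 and 10187, without Sox2KE replicate A 28477 and 1690, and without Sox2KE replicate B 7129 and 9514.

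Strong Sox2KE sites were mostly joint. Strong peaks without a match in the other replicate formed no site and are not counted here. Sites were put into 10 bins of equal size by their mean rank in the 2 lists of their protein. In the strongest bin 79.1% of Sox2KE sites were joint (77.4 to 80.7) and 1 of 2287 was Sox2KE-alone. The joint share fell from bin to bin, to 51.0% in the fifth (48.9 to 53.0) and 16.4% in the weakest (14.95 to 18.03), where 51.2% were Sox2KE-alone. Median scores were 518 and 1099 (A and B) in the strongest bin and 56.7 and 72.5 in the weakest.

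Oct4 sites differed by rank in their joint share. Their joint share was 45.7% in the strongest bin (43.7 to 47.7), between 41.8% and 49.0% in the next 7, and 28.1% in the weakest (26.4 to 29.9). The joint share of Oct4 sites was thus lower in the weakest bins and nearly level above them. Oct4-alone sites were almost absent among strong sites, with 3 of 2541 in the strongest bin, 36 in the fifth and 547 of 2540 in the weakest. Sites in between were 54.2% of the strongest bin and 50.4% of the weakest. At the 11000 joint sites the scores of a Sox2KE and an Oct4 library had a Spearman rho of 0.26 (A and B) to 0.61 (B and A), as a description. All 4 pairs were below the 0.70 between the Sox2KE replicates and the 0.74 between the Oct4 replicates at the same sites. Joint sites of the strongest Sox2KE bin had a median Oct4 rank at 16.5% of the list and those of the weakest at 60.1%. The plot of classes by rank shows both sides.

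**Figure D1:**
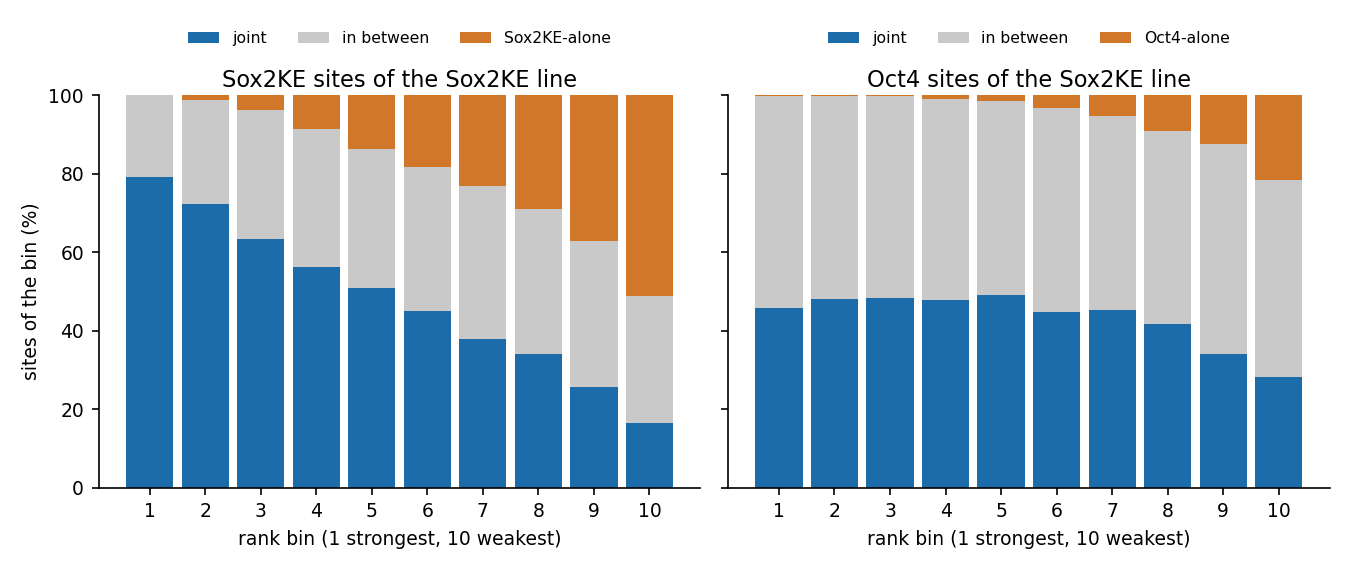
Share of sites in each class (y axis, percent of the bin) by rank bin (x axis, 1 strongest to 10 weakest) for Sox2KE sites (left) and Oct4 sites (right). The joint part of the Sox2KE bars runs from 79.1% down to 16.4%, while that of the Oct4 bars stays between 41.8% and 49.0% over the first 8 bins.

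Sox2KE and Oct4 peaks of joint sites lay on top of each other. The median distance between the midpoint of the Sox2KE site and that of the Oct4 site was 44.2 bp (quartiles 20.2 and 80.0 bp), and 83.6% lay within 100 bp. Single libraries give the fair comparison with replicates, since a site averages 2 midpoints. Between a Sox2KE and an Oct4 library the medians were 56.0 (A and A), 56.5 (A and B), 56.5 (B and A) and 58.5 bp (B and B). The 2 Sox2KE libraries lay 61.0 bp apart and the 2 Oct4 libraries 45.0 bp at the same sites. The distance between the 2 proteins was thus within the range of the distances between replicates. Sites were chosen to have midpoints within 200 bp, which bounds all these distances, and the median over joint sites was 61.0 bp with a limit of 500 bp and 66.5 bp where overlap of intervals made the match.

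**Figure D2:**
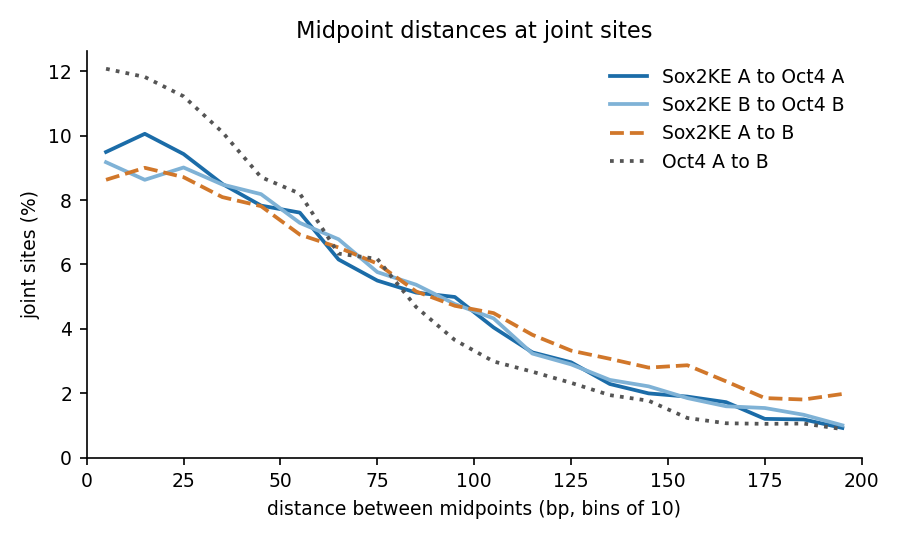
Distances between midpoints (x axis, bp in bins of 10) at the 11000 joint sites, as percent of sites (y axis), for Sox2KE against Oct4 of the same replicate letter (solid lines) and between replicates (broken lines). The solid lines run close to the Sox2KE replicates, with medians of 56.0 and 58.5 bp against 61.0 bp, and the Oct4 replicates are nearer together at 45.0 bp.

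Peaks at joint sites were wider than those at sites of 1 protein alone. A site of 1 protein alone must overlap no peak of the other protein, a rule that wide peaks meet less easily. Its part in the difference was not tested. Sox2KE peaks had median widths of 651 bp (A) and 863 bp (B) at joint sites and of 494 and 607 bp at Sox2KE-alone sites, a mean ratio of 1.37. Scores differed more, with medians of 142 and 370 against 72.8 and 124. Width goes with rank, and within rank bins the ratio was nearer to 1. Over the 9 bins with at least 20 sites of each class it ranged from 1.02 to 1.24 in A and from 1.10 to 1.24 in B, above 1 in every bin of both libraries. For Oct4 peaks the widths were 707 and 717 bp at joint and 522 and 572 bp at Oct4-alone sites. Oct4 peaks of sites in between were wider than joint ones, at 755 and 780 bp, while Sox2KE peaks of sites in between had 591 and 772 bp. Within bins the Oct4 ratio was above 1 in 7 of 7 bins in A and in 4 of 7 in B (0.98 to 1.11), so the Oct4 difference was not seen in both libraries once rank was taken into account.

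Oct4 of the own line was found at more of the Sox2KE sites than Oct4 of the other ES lines. With the 9 lists cut to their 32848 strongest peaks, 16880 sites were in both Sox2KE libraries. An Oct4 peak of the Sox2KE line lay at 67.6% (A) and 61.1% (B) of them. Oct4 of the Sox2 line followed with 44.7% (A) and 45.6% (B), then Oct4 of the Sox17 line with 35.2% and Oct4 of the Sox17EK line with 33.3% (A) and 32.1% (B). Both libraries of the own line were above all 5 others. The means were 64.4% ± 4.60 (SD, n = 2) and 38.2% ± 6.45 (SD, n = 5), a difference of 26.2 percentage points. Here n counts libraries and not lines, and several libraries share a line. Exchanging libraries therefore does not test a difference between lines. An exact permutation test (two-sided, the smaller tail doubled) gave p = 0.095. With the tail doubled, 2 against 5 libraries cannot give a lower p, so the test in this form cannot pass 0.05. These sites were chosen by Sox2KE alone. V5 antibody is named for all 7 Oct4 libraries, and its part in the difference was not tested. The difference was 17.4 points where the peaks of Sox2KE replicate B alone were the sites (without replicate A), and with whole lists it was 20.7 points (exact permutation p = 0.19).

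**Figure D3:**
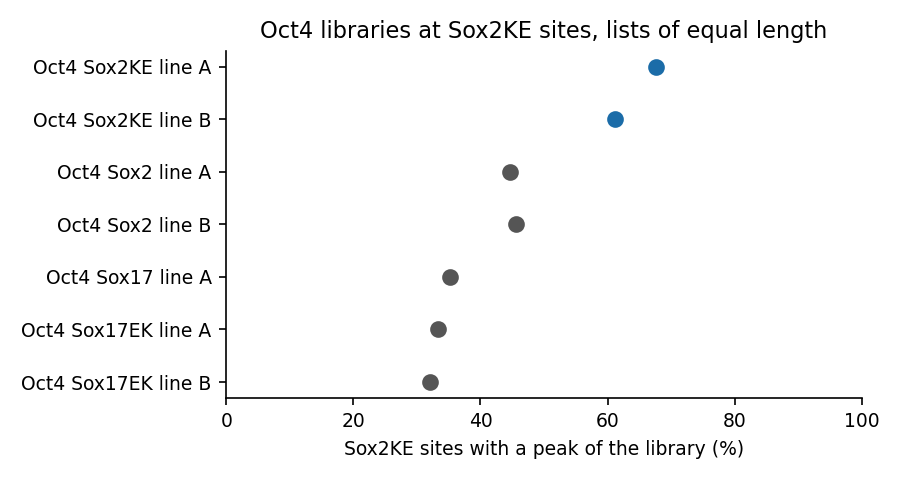
Percent of the 16880 Sox2KE sites (x axis) with a peak of each Oct4 library of ES cells (rows, 1 point per library), all lists cut to 32848 peaks. Both libraries of the Sox2KE line (67.6% and 61.1%) lie to the right of the 5 others (32.1% to 45.6%).

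The Sox2 line, in which the tagged protein has the lysine, was compared by another share, that of single-library Sox peaks with Oct4 in both libraries of their line. With the 8 lists of both lines cut to 23924 peaks, 34.1% (Sox2KE A) and 40.1% (Sox2KE B) of Sox2KE peaks had a peak in both Oct4 libraries of the line, against 29.2% (Sox2 A) and 31.3% (Sox2 B) of Sox2 peaks. The difference of 6.82 points cannot pass a test with 2 against 2 libraries (exact two-sided permutation p = 0.33, the smallest possible), and it turned with the settings. It was -0.49 points at a score of at least 100, -5.12 with whole lists, -7.09 with every list cut to the shortest of the series and between -7.26 and 20.3 when single libraries were left out, so no direction was established. The lines also differed in their sites of 1 protein alone. At 23924 peaks per list, Oct4-alone sites were 13.6% of Oct4 sites in the Sox2KE line, 25.8% for Sox2 and 25.5% for Sox17EK, and 13.0%, 27.4% and 25.6% when overlap of intervals was the match. The joint share did not follow the same order. Joint sites were 37.1% of Oct4 sites in the Sox2KE line, 48.6% for Sox2 and 30.4% for Sox17EK (55.2%, 54.8% and 38.1% by overlap, with Sox2KE and Sox2 nearly level). The tagged-protein-alone sites were 22.1% of Sox sites for Sox2KE, 19% for Sox2 and 6.61% for Sox17EK, and by overlap 18.8%, 18.2% and 6.63%, so that Sox2KE and Sox2 were then nearly level. Each line gives 1 value here, so these differences have no test.

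Sites joint in the Sox2KE line were also found in other libraries far more often than Sox2KE-alone sites. The 2 classes were chosen by presence or absence of Oct4 peaks in this line. A gap in Oct4 libraries of other cells is therefore favoured by the choice itself. The 14 libraries that played no part in choosing the sites were read at each class (midpoints within 200 bp). Peaks of wild-type Sox2 lay at 59.3% (A) and 58.1% (B) of joint sites, at 31.1% and 20.2% of Sox2KE-alone sites, and at 48.6% and 43.8% of all Sox2KE sites. Peaks of Sox17EK lay at 39.9% and 24.5% of joint, 5.87% and 3.90% of Sox2KE-alone and 26.3% and 16.4% of all Sox2KE sites. For Sox17 in ES cells, whose lists are the shortest, the shares were 21.1% and 12.2%, 1.5% and 1.01%, and 13.3% and 7.64%. Sox2KE-alone sites were thus shared mainly with wild-type Sox2 among the Sox proteins.

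Oct4 of other lines showed a larger gap. Oct4 of the Sox2 line lay at 76.1% (A) and 64.0% (B) of joint sites, 26.3% and 5.47% of Sox2KE-alone sites and 57.1% and 40% of all Sox2KE sites. Oct4 of the Sox17EK line lay at 62.9% and 52.4%, 14.8% and 7.02%, and 43.8% and 34.2%. The Oct4 library of the Sox17 line gave 51.3%, 5.03% and 32.2%. By overlap of intervals, 63.2% of Sox2KE-alone sites had no peak of any of the 5 Oct4 libraries of other ES lines, against 8.58% of joint sites. In F9 cells the shares were 55.5% (joint), 11.6% (Sox2KE-alone) and 37.4% (all) for Oct4, and in F9+RA cells 58.3%, 11.3% and 39.6% for Oct4 and 23.1%, 5.12% and 16.2% for Sox17. Sites moved by 10 kb matched these 14 lists in 0.267% to 3.17% of cases.

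Part of the gap went with strength. Over the 9 rank bins that hold at least 20 sites of both classes, each bin weighing the same, the joint share remained the higher one in 14 of 14 libraries, by 7.78 to 56.4 points. For Sox2 the difference shrank from 28.1 to 7.92 points (A) and from 37.9 to 19.8 (B), while for Oct4 of F9 cells it was 44.0 points over all sites and 49.1 within bins. The value of 7.92 points for Sox2 A was 14.1 without Sox2KE replicate B and 4.49 with lists of equal length. The count of 14 held with overlap of intervals, with lists of equal length and without each of the 4 libraries in turn. The 14 libraries share lines and antibodies and are not independent, so the count has no test. For the Oct4 libraries among them, the choice of the classes by Oct4 favoured this direction. By overlap of intervals 1746 Sox2KE-alone sites (41%) met no peak of any of the 14 libraries, against 406 joint sites (3.69%).

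Oct4-alone sites looked different from Sox2KE-alone sites: Oct4 of most other cells was found there about as often as at joint sites. Oct4 peaks of F9 cells lay at 60.4% of Oct4-alone, 57.3% of joint and 59.5% of all Oct4 sites, and those of F9+RA cells at 66.7%, 60.4% and 64.0%. Oct4 of the Sox17EK line lay at 69.4% and 53.6% of Oct4-alone, 64.3% and 53.6% of joint and 65.9% and 55.9% of all Oct4 sites. In the Sox17 line the Oct4 shares were 52.9% of Oct4-alone, 52.9% of joint and 54.2% of all. In the Sox2 line the order was the reverse, with 67.4% and 49.2% of Oct4-alone, 77.2% and 65.0% of joint and 71.8% and 61.4% of all Oct4 sites.

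Over all sites without bins, Sox proteins were less frequent at Oct4-alone than at joint sites. In points the gap was largest for Sox2, while in proportion Sox17 of ES cells fell further. Oct4-alone sites were chosen to have no Sox2KE peak, which favours a lower share of other Sox proteins. Sox2 peaks lay at 23.1% (A) and 21.7% (B) of Oct4-alone sites, 58.2% and 57.1% of joint sites and 37.7% and 36.8% of all Oct4 sites. Sox17EK peaks lay at 32.6% and 20.3% of Oct4-alone, 39.9% and 24.6% of joint and 32.7% and 20% of all Oct4 sites, so its share at Oct4-alone sites was that of Oct4 sites at large. Sox17 of ES cells lay at 5.01% and 1.93%, 21.8% and 12.3%, and 18.2% and 8.85%. Sox17 of F9+RA cells lay at 8.87% of Oct4-alone, 24.1% of joint and 26.1% of all Oct4 sites.

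At equal Oct4 rank, Sox2 and most Oct4 libraries differed in direction. Over the 7 rank bins with at least 20 Oct4-alone and 20 joint sites, Sox2 kept the higher share at joint sites, by 28.8 points (A) and 25.5 points (B). Oct4 of other cells had the higher share at Oct4-alone sites, so that joint minus Oct4-alone was -17.4 and -19.0 points for the Sox17EK line, -19.8 for the Sox17 line, -18.6 for F9 cells and -24.6 for F9+RA cells. For the Sox17EK protein it was -5.74 and -7.90 points, but this order changed: without Oct4 replicate A joint sites were higher for both Sox17EK libraries, by 9.31 and 2.29 points, and without Sox2KE replicate B by 14.1 and 9.19 points. Oct4 of the Sox2 line gave 0.13 points (A) and -13.5 points (B). For Sox2 and for the 5 Oct4 libraries of the Sox17EK and Sox17 lines and of F9 and F9+RA cells, the direction held with overlap of intervals, with lists of equal length and without each of the 4 libraries in turn. The Sox2 differences were 8.55 and 6.93 points without Sox2KE replicate A, 43.3 and 43.2 without Sox2KE replicate B and 41.2 and 38.6 without Oct4 replicate A. Leaving out any 1 of the 4 libraries made the 5 Oct4 differences smaller, to between -18.4 and -1.55 points, and they were smallest without Oct4 replicate A (-8.22 for F9+RA to -1.55 for the Sox17 line). Over all sites without bins, joint sites were higher in 10 of 14 libraries instead of 6, and the Oct4 library of the Sox17 line then gave 0.075 points.

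**Figure D4:**
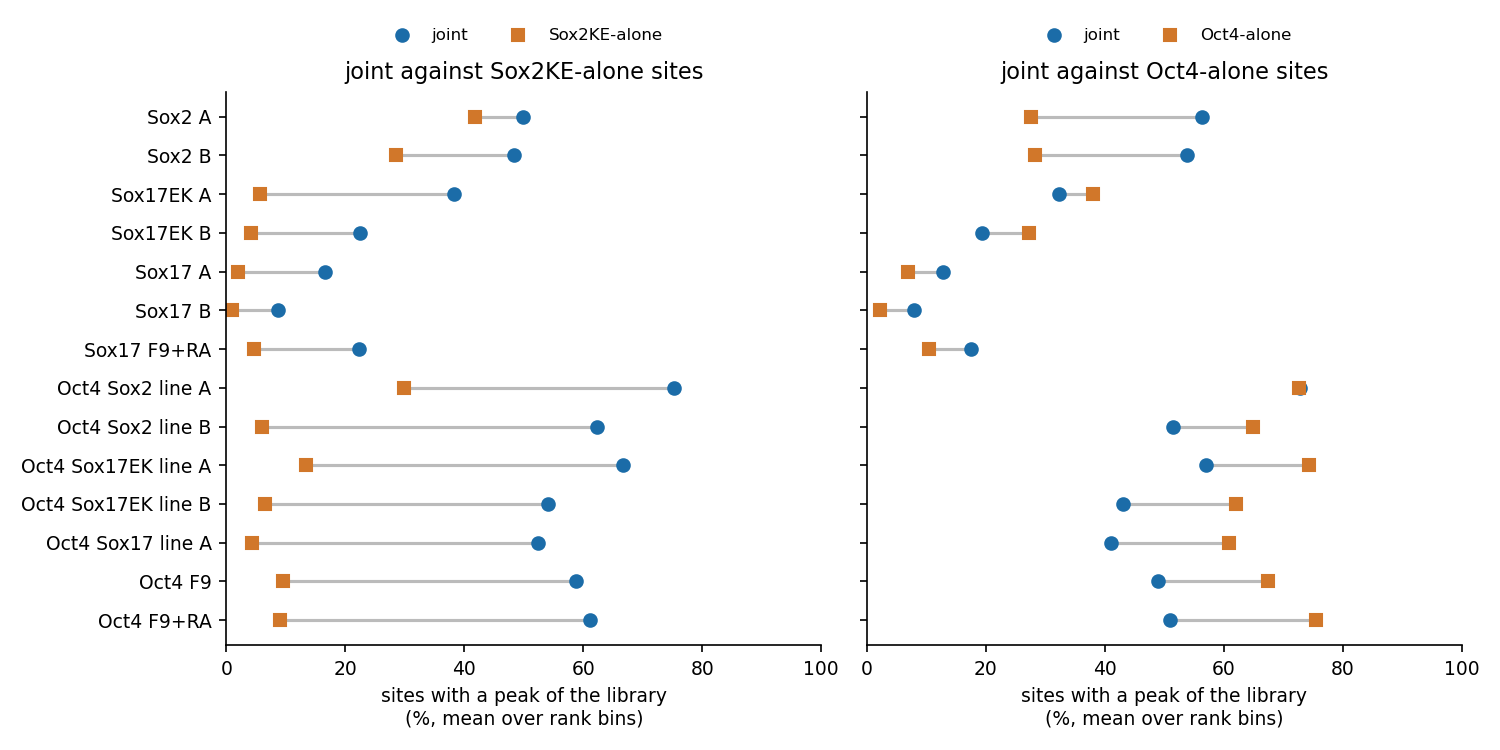
Percent of sites with a peak of each of the 14 other libraries (x axis, mean over rank bins with at least 20 sites of each class) at joint sites (circles) against Sox2KE-alone sites (left, squares) and against Oct4-alone sites (right, squares). On the left the circle is to the right in all 14 libraries. On the right it is to the right for the Sox2 and Sox17 proteins and, by 0.13 points, for Oct4 of the Sox2 line A, and to the left in the other 8 libraries.

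Many joint sites had no peak of wild-type Sox2. The split used the whole Sox2 lists of 32226 (A) and 23924 (B) peaks, each shorter than any list of the Sox2KE line. The part of list length in this was not tested. Of 11000 joint sites, 5843 (53.1%) were overlapped by peaks of both Sox2 libraries, 2297 (20.9%) by 1 and 2860 (26%) by neither. Joint sites without Sox2 were weaker Sox2KE sites, with a median rank at 42.2% of the list against 17.2% for those with both. Oct4 of the Sox2 line still overlapped 70.9% (A) and 48.3% (B) of the joint sites without Sox2, against 98.3% and 82.4% of those with both Sox2 libraries. In the other ES lines Oct4 shares also were lower at joint sites without Sox2, at 65.4% and 47.9% against 80.4% and 70.1% (Sox17EK line) and at 45.5% against 66.5% (Sox17 line).

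F9 cells gave a flatter picture at these sites. Oct4 of F9+RA cells overlapped 66.2% of joint sites without Sox2 and 69.8% of those with both Sox2 libraries, and Oct4 of F9 cells 61.3% and 71.7%. The Sox17 protein of F9+RA cells ran the other way, with 37.3% of joint sites without Sox2, 35.2% with 1 Sox2 library and 25.4% with both. Sox17 of ES cells did not, with 15.7% (A) and 6.15% (B) without Sox2 and 33.9% and 22% with both. Each of these libraries gives 1 value per class, and no test was made. Of the 4257 Sox2KE-alone sites, 2617 (61.5%) had neither Sox2 library, and Oct4 of the Sox2 line overlapped 13.5% (A) and 1.49% (B) of those.

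**Figure D5:**
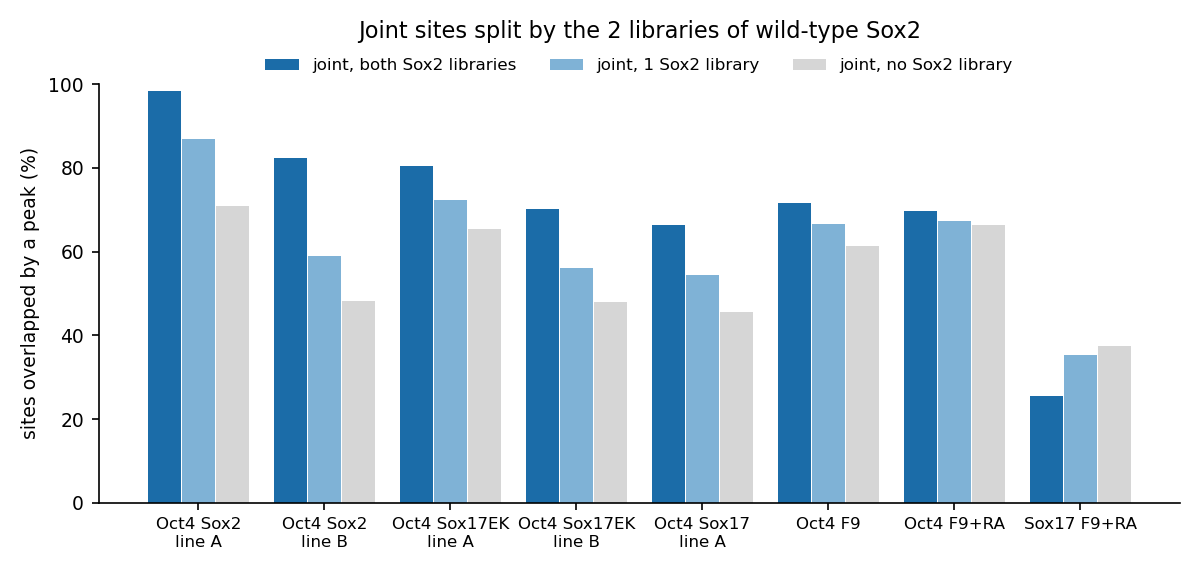
Percent of joint sites overlapped by a peak (y axis) for 7 Oct4 libraries and Sox17 of F9+RA cells (x axis), by whether both, 1 or neither of the Sox2 libraries had a peak. The bars of ES Oct4 libraries fall from left to right within each library (98.3% to 70.9% for the Sox2 line A), and those of Sox17 F9+RA rise from 25.4% to 37.3%.

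Named positions, in build mm9, were the strongest of each class by mean rank. The strongest joint site, on chromosome 17 at 39979590 to 39985882, spans 6293 bp, scored 3100 in all 4 libraries of the line and had a peak in all 18 lists. It also scored 3100 in every other ES list, those of Sox17EK and Sox17 included. Whether this signal is binding of either protein was not tested. Regions shared so widely were few. All 14 lists from outside the Sox2KE line overlapped 367 of 11000 joint sites (3.34%), no Sox2KE-alone and 2 Oct4-alone sites. When all sites overlapped by these 14 lists were left out, those in between included, the joint share was 47.5% of the remaining 22403 Sox2KE sites. It was 42.8% of the remaining 24817 Oct4 sites. The second site, on chromosome 11 at 108872626 to 108873695, scored 2514 and 2594 for Sox2KE and 2819 and 2664 for Oct4, and was also in all 18 lists. On chromosome 4 at 122675556 to 122677248 the scores were 2051 and 3100 for Sox2KE and 3100 and 1749 for Oct4. That site was strong in the Sox2 line as well (Sox2 1389 and 1696, Oct4 3100 and 1167). For Sox17EK it scored 79.9 (A) and 85.4 (B), near the list medians of 87.6 and 77.3.

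The other named joint sites of the 8 had peaks in 15 to 18 lists. Joint sites as a class had a median of 8 of the 14 lists from outside the line. On chromosome 16 at 29666706 to 29668176 Sox2KE scored 1457 and 3100 and Oct4 3100 and 1801. Sox2 scored 1271 and 866 there, Sox17EK A and Sox17 B had no peak, and Sox17 of F9+RA cells had none. The sites on chromosome 8 at 37217936 to 37219422, on chromosome 1 at 13074440 to 13075983 and on chromosome 1 at 20857255 to 20858772 each had peaks in 17 lists, the missing one in each being Sox17 of F9+RA cells. The remaining one of the 8, on chromosome 15 at 75463590 to 75465657, was in all 18 lists with Sox2KE scores of 2695 and 3100.

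Sox2KE-alone sites had lower scores and few partners. The strongest, on chromosome 5 at 89587450 to 89588201, scored 432 and 603 for Sox2KE, with Sox2 peaks of 206 and 140 and an Oct4 peak of 110 in the Sox2 line A. It had no peak in any other list. The next, on chromosome 2 at 31436615 to 31437633, scored 276 and 749 and also had both Sox2 peaks (136 and 97.3). For 4 of the 8 strongest, no list outside Sox2KE had a peak: 44696245 to 44697220 on chromosome 4 (Sox2KE scores 465 and 419), 91272550 to 91273718 on chromosome 10 (scores 342 and 501), 77314997 to 77315560 on chromosome 1 (scores 377 and 462) and 108141548 to 108142670 on chromosome 7 (scores 343 and 466). These regions had peaks in both Sox2KE libraries and were absent from the 16 other lists. The others were on chromosome 1 at 53793548 to 53795370 and on chromosome 6 at 32976005 to 32976473, both with a peak of Sox2.

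The strongest Oct4-alone sites had Oct4 peaks in most other cells. On chromosome 7 at 51191768 to 51192512 Oct4 scored 884 and 597 in the Sox2KE line, 3100 in F9 cells, 1231 in F9+RA cells, 1874 and 721 in the Sox17EK line, 1130 in the Sox17 line and 369 and 140 in the Sox2 line. No Sox library of any kind had a peak there. The strongest of the class, on chromosome 11 at 51547500 to 51548169, had Oct4 scores of 965 and 767 in the Sox2KE line and 1628 in F9 cells, again with no Sox peak. On chromosome 6 at 136966093 to 136966695 the scores were 754 and 620, with 1660 in the Sox17 line. Among the 8 strongest, the site on chromosome 7 at 72594927 to 72595622 (540 and 327) alone had ES Sox peaks, of Sox2 (184 and 227) and Sox17EK (169 and 66.0).

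By mean rank, some joint sites were strong for 1 protein and weak for the other. Median Oct4 scores over all joint sites were 268 (A) and 151 (B). On chromosome 10 at 43712739 to 43713785 Sox2KE scored 1175 and 1748 and Oct4 274 and 86.1, so that only Oct4 B was low. Sox2 scored 497 and 716 there. On chromosome 10 at 92332491 to 92333569 Sox2KE scored 1209 and 1577 and Oct4 254 and 65.1, again with Oct4 A near its median. The only other peaks were those of Sox2 A (220) and Oct4 of the Sox2 line A (51.5). The reverse was found on chromosome 12 at 73185283 to 73188033, where Oct4 scored 1277 and 1321 and Sox2KE A 188, while Sox2KE B reached 1264. The Sox2KE libraries themselves thus disagreed at this site, as they did on chromosome 3 at 122686559 to 122688399 (105 and 1262, with Oct4 at 1090 and 1094).

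Joint sites were spread over the genome. Their share of Sox2KE sites ranged from 44.7% to 52.8% over the autosomes, the highest on chromosome 15 (exact 95% interval 49.4 to 56.2), and was 39.5% on the X chromosome (34.5 to 44.6). The X chromosome held 148 joint sites and 96 Sox2KE-alone sites, 1.35% and 2.26% of their classes. Sox2KE-alone sites lay a median of 9569 bp from the nearest Oct4 peak, against 9731 and 11030.2 bp after a move by 10 kb to either side. Oct4-alone sites lay a median of 5162 bp from the nearest Sox2KE peak, against 6419 and 6252 bp after the move.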

How the data were processed

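The deposited files hold 1 peak list per library, with chromosome, start, end, peak name and a number. The authors' peak names carry the prefix of the caller MACS, per the file contents. The number is the score that the authors' caller gave each peak, as deposited, and was read from its values (lowest value 50 in each of the 4 lists) as 10 times −log10 p, a scale no label states. The build is mm9, per the submitters' processing notes. Not given in the sources used here were the aligner, the caller's settings and its control, and read depth is unknown. The 2 mock libraries were not analysed here.

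Peaks were paired where midpoints were mutually nearest and at most 200 bp apart. A site of 1 protein alone had neither a midpoint within 200 bp nor an overlapping interval in either list of the other protein. Shares have exact Clopper-Pearson 95% intervals, which cover counting error only. The 2 comparisons of libraries used exact permutation tests, two-sided by doubling of the smaller tail, on differences between means. No label names separate cultures, so a p-value here reflects the spread of these samples alone, and that spread may be technical. The matching was tested on simulated lists. Named positions are the 8 strongest sites of each class by mean rank, plus 2 joint sites each that are strong for 1 protein and in the lower part of the ranking for the other. Gene names, gene lists and the planned motif search were not used here, since the gene table belongs to build GRCm38. The members and the measures were chosen with earlier results of these data known. Alternatives were other matching distances, overlap of intervals, a score of at least 100, lists of equal length and leaving out each library. Tools were pandas 2.3.3, NumPy 2.4.6, SciPy 1.17.1 and Matplotlib 3.10.9 under Python 3.11.15.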

Additional observations from a re-analysis of the deposited data

Results flagged for a closer look

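The share of Oct4 sites with a peak in the Oct4 list of another line, joint minus Oct4-alone, had opposite signs in 2 lines when all sites were pooled. It was 9.85 and 15.8 points in the Sox2 line (A and B) and -5.08 and -0.0038 points in the Sox17EK line, and the mean of the Sox17EK line minus that of the Sox2 line was -15.4 points. Each library had the sign of its line, though 1 value of the Sox17EK line is close to 0, and the difference was not tested. Within rank bins the signs no longer separated the lines, with 0.13 and -13.5 points in the Sox2 line and -17.4 and -19.0 in the Sox17EK line.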

How the results depend on the processing

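The share of Sox2KE sites that were joint (48.1%) was 35.1% with midpoints within 100 bp, 58.5% within 500 bp, 61.1% by overlap of intervals, 45.0% at scores of at least 100, 53.3% with lists of 32848 peaks and 26.5% to 72.2% without single libraries. For Oct4 sites (43.3%) these values were 29.0%, 56.4%, 60.3%, 33.2%, 41.3% and 30.2% to 74.9%. The median distance of 44.2 bp was 33.8, 61.0 and 66.5 bp under the 3 other matches, 45.5 bp with equal lists and 49.8 to 56.5 bp without single libraries. The width ratio of 1.37 was 1.47 within 500 bp, 1.5 by overlap, 1.26 with equal lists and 1.27 to 1.64 without single libraries. Matching distance bounds the distances by construction, and the cause of the other shifts was not tested. The excess of own-line Oct4 kept its sign in all 15 alternatives (17.4 to 29.4 points without single libraries, exact permutation p from 0.095 to 0.33). The Sox2KE minus Sox2 line difference (6.82) was -0.49 at scores of at least 100, -5.12 with whole lists, -7.09 with lists cut to the shortest of the series and -7.26 to 20.3 without single libraries. With the replicate letter as a replicate block it was 6.82 again (exact permutation p = 0.5, the smallest possible), and the letters are not known to pair samples. Joint sites exceeded Oct4-alone sites in 6 of 14 libraries within rank bins and in 10 without bins. The rank bins, the split by Sox2 and the settings applied to the 14 libraries are descriptions. Those settings and the removal of sites overlapped by all 14 libraries were chosen after the data were seen. Unknown depth limits any comparison of list lengths.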
